A study of Mus musculus with 2 samples.

Results

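Inositol 1,4,5-trisphosphate (IP3) receptors are the calcium release channels of the endoplasmic reticulum. Phospholipase C cleaves a membrane lipid to give IP3, which binds the large cytosolic part of the receptor and opens a pore formed by 4 subunits near their carboxyl ends. The genes Itpr1, Itpr2 and Itpr3 encode the 3 subunit types, which can assemble with each other: type 1 is abundant in neurons, type 2 is known from heart muscle, liver and secretory cells, and type 3 from epithelia, exocrine glands and taste cells. Here the circular RNAs (circRNAs) of these genes are described. A circRNA is a closed molecule made when the splice donor at the end of an exon is joined back to the acceptor at the start of the same or an earlier exon, and reads across this back-splice junction mark it. All entries whose host gene is Itpr1, Itpr2 or Itpr3 were taken, 73 of 31496 in the series, of which 52 were of Itpr2, 18 of Itpr1 and 3 of Itpr3. Itpr2 was chosen by its number of circRNAs and its junction reads in these same libraries, and the other receptor genes were added as its family, so that isoform numbers and levels are descriptions. Of the 73 entries, 60 of 18438 were in the library labelled ISC and 22 of 18324 in the library labelled non-ISC. These lists are not alike. All 18438 entries of the first had a junction read, but 6122 of the 18324 of the second had none, which leaves 12202 with a read.

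The RNA came from intestinal cells of mice of the strain Lgr5GFP-CreERT2, aged 2 months, that carry a green fluorescent reporter for Lgr5, a marker of crypt base stem cells. Flow cytometry gave a Lgr5-positive fraction, labelled ISC, and a Lgr5-negative fraction, labelled non-ISC, with the reporter strain and age shared by both. Each fraction is 1 library, the sources used here do not give the number of mice, and nothing below has a replicate check. The library labelled ISC held 156582 junction reads and the library labelled non-ISC 76331, so the 3 counts that a count of 0 allows correspond to 19.2 and 39.3 per 1000000 junction reads.

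Marker genes went against the labels. Of 10 crypt stem cell markers, 8 had no circRNA read in the library labelled ISC and 2 had none in the library labelled non-ISC, and their summed reads were 33 against 171. Of 14 epithelial markers, 10 and 3 had none, with 12 reads against 476. Of 15 lymphocyte markers, 2 and 10 had none, with 7086 reads against 128. Satb1 alone gave 4292 against 3 of these. Pax5 had 2 against 3, Ebf1 had 1 against 0 and Cd79a had none in either library. Lgr5 itself had 0 reads against 7, Epcam, an epithelial surface protein, 0 against 59, and Ptprc, the common leukocyte antigen, 58 against 0, while Cd3e had none in either. Markers of stroma and endothelium summed to 718 reads against 19, of which Zeb1 gave 649 and 12 and Pecam1 67 and 7. Of the others on that list, Pdgfra had 2 against 0, and Col1a1, Col3a1 and Kdr had none in either library. Markers of myeloid cells summed to 9 against 3, and those of tuft and endocrine cells to 3 against 23. The groups are therefore named by their labels throughout. Lymphocyte markers other than Pax5, Ebf1, Cd79a and Cd3e, with Zeb1 and Pecam1, moved with every difference below toward the library labelled ISC. Epithelial markers moved with every difference the other way. The part of these markers in those differences was not tested. In bulk samples fewer cells of a type and less RNA per cell cannot be told apart.

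Back-splice junctions of Itpr2 circRNAs with shared ends are shown first, chosen to show that sharing and not by reads alone. Exons 3 to 22 is thus among them with 6 reads. Exons 17 to 21 and exons 25 to 26, with 45 and 26 reads, are not, and no other circRNA used their acceptors. Each sequence runs 5′ to 3′ in the sense of the transcript and is taken from GENCODE transcript Itpr2-201 (GRCm38). It holds the last 25 nt of the donor exon in lower case, followed by the first 25 nt of the acceptor exon in capitals. Itpr2 lies on the minus strand of chromosome 6 (146108299 to 146502223), so the acceptor is the higher coordinate. The first 3 circles share the acceptor of exon 22, and so the same capitals, and lie at chr6:146354630-146359487, chr6:146350023-146359487 and chr6:146345057-146359487.
Itpr2 exons 22 to 23: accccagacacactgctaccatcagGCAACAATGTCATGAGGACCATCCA
Itpr2 exons 22 to 24: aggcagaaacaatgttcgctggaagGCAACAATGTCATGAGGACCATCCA
Itpr2 exons 22 to 26: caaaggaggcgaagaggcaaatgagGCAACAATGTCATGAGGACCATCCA

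The next 3 share the acceptor of exon 3, and lie at chr6:146422706-146426570, chr6:146415321-146426570 and chr6:146359294-146426570. The last of them uses as donor the end of exon 22, the exon whose start is the acceptor of the circles above.
Itpr2 exons 3 to 5: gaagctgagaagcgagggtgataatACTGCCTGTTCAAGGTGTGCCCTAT
Itpr2 exons 3 to 9: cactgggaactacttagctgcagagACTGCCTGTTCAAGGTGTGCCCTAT
Itpr2 exons 3 to 22: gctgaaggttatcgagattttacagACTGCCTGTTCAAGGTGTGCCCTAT

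Toward the end of the gene the sharing is crossed. The first pair below has a common donor in exon 54 and the last pair a common donor in exon 55, while exon 53 and exon 49 serve as acceptors with more than 1 donor each. The circles lie at chr6:146156970-146159017, chr6:146156970-146166671, chr6:146144109-146159017 and chr6:146144109-146180355.
Itpr2 exons 53 to 54: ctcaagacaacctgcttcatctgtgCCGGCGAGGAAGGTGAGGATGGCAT
Itpr2 exons 52 to 54: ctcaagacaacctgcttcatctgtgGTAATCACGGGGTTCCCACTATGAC
Itpr2 exons 53 to 55: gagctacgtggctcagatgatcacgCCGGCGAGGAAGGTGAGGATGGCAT
Itpr2 exons 49 to 55: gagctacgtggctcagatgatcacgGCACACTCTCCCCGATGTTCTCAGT

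Itpr2 had 509 junction reads on 46 circRNAs under the label ISC and 31 reads on 9 circRNAs under the label non-ISC. No host gene of the library labelled ISC gave more circRNAs, the number by which Itpr2 was chosen, although Itpr2 ranked 31 of 5823 by reads. Of the 48 circRNAs with a read, 39 were read in the library labelled ISC alone, 2 in the library labelled non-ISC alone and 7 in both. An entry that a file lacks may have had reads below an unknown limit, so for single circRNAs listed in 1 file the reads stand alone and no fold is printed.

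**Figure D1:**
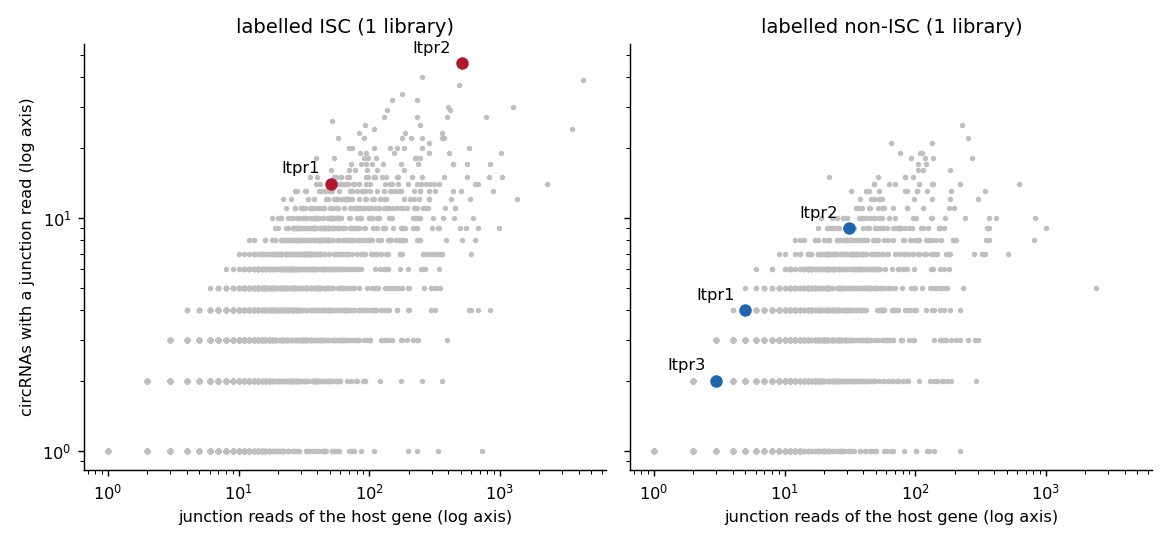
Each grey point is a host gene, with its junction reads on the horizontal log axis and its number of circRNAs with a read on the vertical log axis, in the library labelled ISC (left) and labelled non-ISC (right). Itpr2, at 509 reads and 46 circRNAs, is the topmost point on the left, and at 31 reads and 9 circRNAs lies among other host genes on the right; Itpr3 has no point on the left because it had no reads there.

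Reads were spread over the Itpr2 circRNAs far more evenly than in host genes of like depth. Itpr2 was chosen by its number of circRNAs in these libraries, so this comparison describes the gene and tests nothing. The leading circRNA, exons 3 to 9, held 11.98% (95% exact binomial interval 9.29 to 15.1) of the gene's reads in the library labelled ISC. In the 47 other host genes whose reads were within 1.5-fold of those of Itpr2, the leading circRNA held a median of 81.8%, and the number of circRNAs ranged from 1 to 37 with a median of 10. The effective number of circRNAs, the inverse of the summed squared shares, was 14.85 for Itpr2 against a median of 1.48 for these genes, and none of them exceeded Itpr2 in either number. In the library labelled non-ISC, 24 of 480 host genes of like depth had more than 9 circRNAs and 11 a higher effective number than the 6.72 of Itpr2. At an equal depth of 31 reads the library labelled ISC would be expected to show 15.65 Itpr2 circRNAs, against the 9 seen in the library labelled non-ISC.

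Most of these isoforms were built from annotated exons. Both ends lay exactly on exon ends for 45 of the 48 circRNAs, with 535 of 540 reads, and for none when the ends were shifted by 1 nt. The remaining 3 had 1 or 2 reads each and had an end in intron 16, 26 or 55. The 45 exonic circles held 2 to 22 exons (median 5), with a median spliced length of 751 nt and genomic spans of 325 to 87993 nt. No circle was made of a single exon, a form that made up 4.44% of the 17417 exonic circRNAs of all host genes, whose median was 3 exons and 474 nt. Exons are numbered by transcript Itpr2-201, which has 57. Its exon 6 (99 nt) is absent from another annotated transcript, which has 56 exons. Junction reads do not show which exons a circle holds between its ends, exon 6 among them. Exon numbers, spliced lengths, residues and reading frames therefore assume every exon of the numbered transcript in between, except where a length without exon 6 is given.

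The libraries together gave 12 Itpr2 circRNAs a minimum of 10 reads, and they account for 78.3% of all Itpr2 reads. Of the 12, 11 were higher under the label ISC and 0 lower. A circRNA was called higher or lower with a ratio of at least 2 between its shares of each library's junction reads and a 95% exact counting interval excluding 1, and 32.4% of all 3659 circRNAs with enough reads were called higher by this rule and 23.0% lower. Of the 11, 6 had reads in both libraries, and the other 5 rest on a missing entry counted as 0. With at least 10 reads against 0 the rule can only call higher, so those 5 calls were fixed by the minimum. All 12 met that minimum by their reads labelled ISC alone, so the count of 11 is a description and no test. Counting error is all that these intervals hold, and it is the libraries that they compare, not the cell types.

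Near the amino-terminal coding end, the circle of exons 3 to 9 gave 61 reads under the label ISC and 5 under the label non-ISC, a ratio of 5.95 (2.41 to 18.97). It has a spliced length of 788 nt, or 689 nt without exon 6, and its exons encode residues 55 to 317, in the part of the receptor known for IP3 binding and its control. The shorter circle of exons 3 to 5 gave 33 reads under the label ISC but 1 under the other, and its ratio was 16.1 (2.69 to 654). Both were thus high in the library labelled ISC, with the second resting on a single read in the other. Exons 3 to 22, by contrast, gave 6 reads in the library labelled non-ISC, more there than any other Itpr2 circRNA, and had no entry in the library labelled ISC. Its deposited count was 28, so that most reads assigned to it were not junction reads.

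In the middle of the gene, exon 22 was the most used acceptor, with 154 reads on 4 circRNAs. Exons 22 to 23 (324 nt) had 59 reads against 5, the library labelled ISC being given first here and from now on, a ratio of 5.75 (2.33 to 18.4). Exons 22 to 24 (382 nt) had 54 against 5, a ratio of 5.27 (2.12 to 16.9). Exons 22 to 26 (722 nt) had 25 against 5 and was the circle that missed the rule, with a ratio of 2.44 and an interval of 0.917 to 8.15, but with library totals or median-ratio scaling it would be called, and from the deposited counts its ratio fell to 0.933. The intervals of these 3 circles overlap, so no order among them is resolved. In the library labelled non-ISC they were level at 5 reads each, while in the library labelled ISC the longest of them had the fewest. The fourth, exons 22 to 34, had 1 read, labelled ISC. Beside them, exons 25 to 26 (340 nt) had 25 against 1, a ratio of 12.2 (1.995 to 500.4) that rests on that single read and was no longer called with junction reads halved (0.979 to 277). Exons 17 to 21 (854 nt) had 43 against 2, a ratio of 10.5 (2.73 to 89.3). The last encodes residues 629 to 914.

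The exons toward the carboxyl end, which encode residues 2257 to 2619 and are known to hold the membrane-spanning pore, gave 5 of the 12 circles, all without an entry in the library labelled non-ISC. Exons 53 to 54 led with 42 reads. Exons 52 to 54 had 17 reads, exons 53 to 55 had 15, exons 49 to 55 had 13 and exons 49 to 52 had 12. The circle of exons 53 to 54 was the shortest of the 12, at 297 nt, and is printed whole, with exon 53 in capitals and exon 54 in lower case; its last base joins its first.
Itpr2 exons 53 to 54 circle: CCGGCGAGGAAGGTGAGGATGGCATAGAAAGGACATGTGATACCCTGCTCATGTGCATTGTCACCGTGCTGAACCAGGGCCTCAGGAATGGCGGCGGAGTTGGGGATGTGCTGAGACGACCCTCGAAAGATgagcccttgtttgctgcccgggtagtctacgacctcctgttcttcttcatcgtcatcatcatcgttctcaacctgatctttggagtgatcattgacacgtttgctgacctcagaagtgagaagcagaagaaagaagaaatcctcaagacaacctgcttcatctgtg

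**Figure D2:**
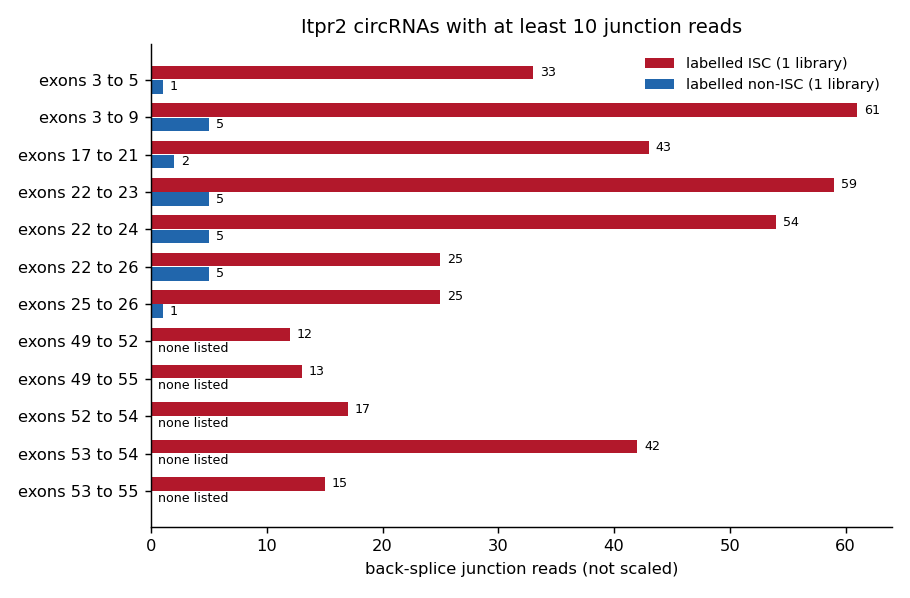
Horizontal bars give the unscaled back-splice junction reads of the 12 Itpr2 circRNAs with at least 10 reads, in exon order, for the library labelled ISC (red) and labelled non-ISC (blue), with 1 library each and no error bars. Red bars run from 12 to 61 reads and blue bars reach at most 5, with none listed for the 5 circles from exon 49 on.

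The length of this circle is a multiple of 3, and the reading frame of the host gene runs on across its junction without a stop codon. That held for 21 of the 45 exonic Itpr2 circles and 4 of the 12 with at least 10 reads. All 45 lay within the coding sequence. Among exonic circRNAs of all host genes 38.3% had a length that is a multiple of 3. No readout here bears on whether any circle is translated.

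Below 10 reads stood 36 Itpr2 circRNAs, 20 of them with 1 or 2 reads, which held 117 reads together and filled the gene between the abundant circles. Of these, 2 were read under the label non-ISC, exons 3 to 22 and a circle of exons 46 to 51 with 1 read. Exon 16 served as acceptor for 5 circles of 1 to 8 reads, reaching donors from exon 20 to exon 37. Exon 46 served 6 circles of 1 to 6 reads with donors from exon 48 to exon 55. Exon 27 opened 3 circles, the largest being exons 27 to 32 at 9 reads. Exon 38 opened another 3, led by exons 38 to 45 at 7 reads.

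Ends were reused in many combinations. The 48 circRNAs drew on 23 acceptors and 27 donors, and 10 acceptors and 11 donors were used by more than 1 circRNA. The 3 acceptors with the most reads, of exons 22, 3 and 53, took 59.8% of all reads, whereas the 3 leading donors, of exons 54, 9 and then 24 or 23 (64 reads each), took 37.6%. Acceptors were thus the more concentrated side. Donor exon 54 was joined to 5 acceptors and donor exons 55, 52 and 37 to 4 each. From the 20 acceptor exons and 25 donor exons of the exonic circles, 265 pairs with the donor in the same or a later exon could be formed, of which 45 (17.0%) were seen.

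**Figure D3:**
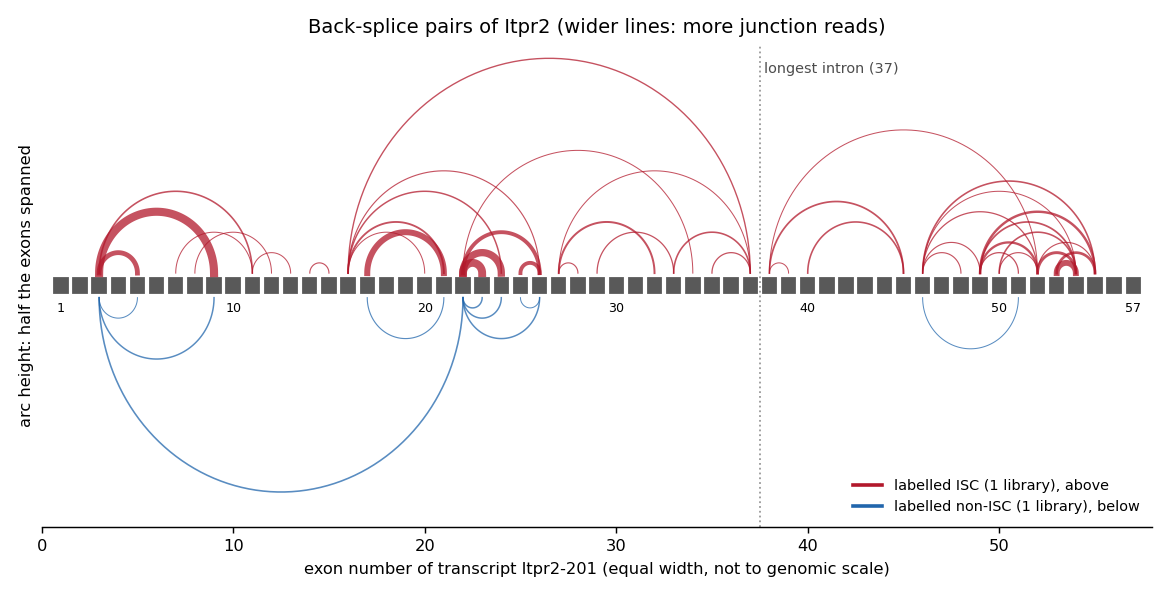
Arcs join the acceptor and donor exons of each exonic Itpr2 circRNA along the 57 exons of transcript Itpr2-201, drawn at equal width, with the library labelled ISC above and labelled non-ISC below; wider lines have more junction reads and arc height follows the number of exons spanned. The arcs leave exons 1, 2, 56 and 57 out, and no arc crosses intron 37, marked by the dotted line.

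Introns beside a used end were longer than the others. Of the 56 introns of Itpr2, 30 lay directly before a used acceptor or after a used donor, and these had a median length of 5856 nt against 1830 nt for the other 26. Of the 10 longest introns 9 flanked an end, and of the 10 shortest 3. The exception among the long ones was intron 1, as exons 1 and 2 were in no circle. Across the 56 introns, length and the reads of the adjoining ends had a Spearman's rho of 0.665, which is a description, since the ends come from the same 2 libraries and neighbouring introns share circles.

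The leading acceptors followed introns of very different lengths. Exon 22 (154 reads) followed 11765 nt, exon 3 (112 reads) followed 50116 nt and exon 53 (57 reads) followed 7561 nt. Exon 17 (45 reads) and exon 25 (26 reads) followed 3162 and 2789 nt, which is shorter than the median of the introns beside a used end. Intron 37, the longest at 50279 nt, was crossed by no circRNA, although exons 37 and 38 on its sides were used as donor and acceptor with 14 and 9 reads. Intron 45 (29388 nt) was crossed by a single circle with 1 junction read, exons 38 to 52. The 15259 nt of intron 26 were crossed by 2 circles with 5 reads together. Others of the 10 longest were crossed more often, intron 54 (12700 nt) by 4 circles with 36 reads and intron 21 by 4 with 17 reads. Intron 34 (14247 nt) was crossed by 3 with 11 reads and intron 32 (10143 nt) by 4 with 9 reads. Among the 4 over intron 54 were the circles of exons 53 to 55 and 49 to 55. Over all host genes the median intron was 4841 nt before an acceptor and 3617 nt after a donor, counted per circRNA, against 8693 and 9518 nt for Itpr2.

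**Figure D4:**
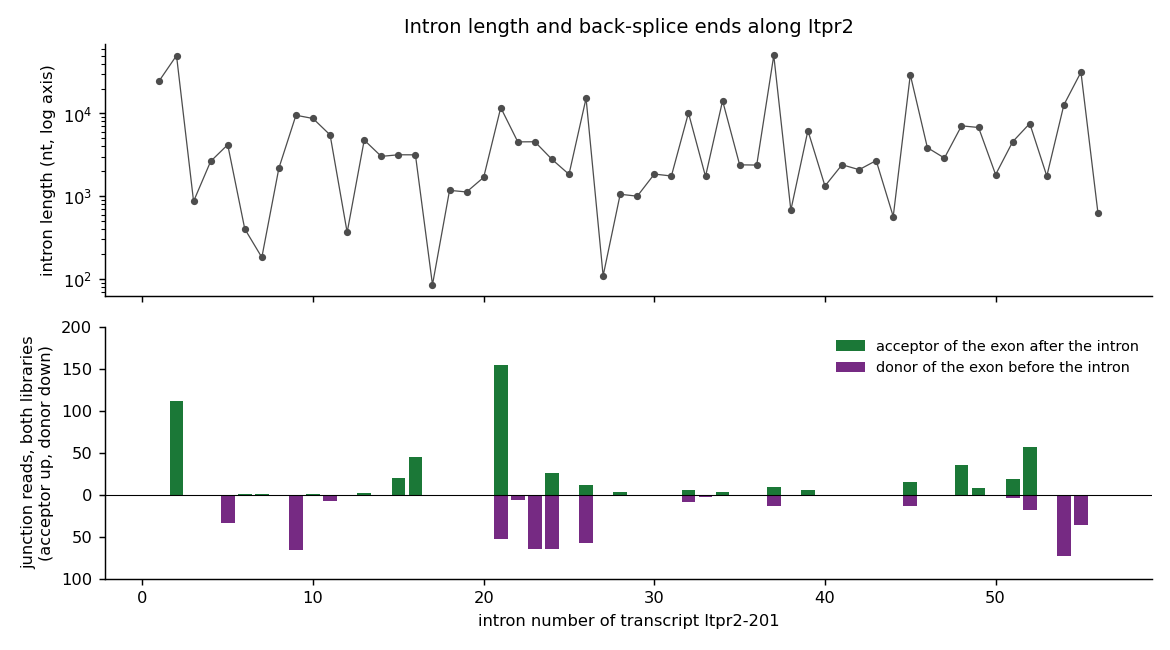
The upper panel gives the length of each of the 56 Itpr2 introns on a log axis, and the lower panel the junction reads of both libraries that use the acceptor after the intron (green, up) or the donor before it (purple, down). Peaks of intron length at introns 2, 21, 26, 37, 45 and 55 meet used ends, with 154 acceptor reads after intron 21.

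The uncrossed intron 37 divided the gene into sides with different shares in the libraries. Circles of exons 38 to 57 held 148 of 509 Itpr2 reads (29.1%, 25.2 to 33.2) in the library labelled ISC and 1 of 31 (3.23%, 0.0816 to 16.7) in the library labelled non-ISC. Circles of exons 1 to 37 held 356 reads (69.9%) and 30 reads (96.8%). Within the later side, exons 49 to 55 held 23.4% (19.8 to 27.3) and 0 of 31 (exact interval 0 to 11.2), which by the limit of 3 counts allows a share of up to 9.68%. The stretch of exons 22 to 26 held 32.0% (28.0 to 36.3) and 51.6% (33.1 to 69.9), and that of exons 3 to 9 held 18.5% (15.2 to 22.1) and 19.4% (7.45 to 37.5). The sides hold nearly all Itpr2 reads between them, so their shares make a single comparison, for which the intervals of the libraries are separate. They overlap for exons 22 to 26 and for exons 3 to 9. The later circles read under the label ISC had no entry in the other library, and each such entry counted as 0. The split at intron 37 was chosen after the arcs were seen, so separate intervals at that split are a description and no test, and 31 reads are few.

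Itpr1, on the plus strand of chromosome 6 (108213096 to 108551109), gave fewer reads than Itpr2 in both libraries, 51 on 14 circRNAs against 5 on 4 circRNAs. Summed over the gene this was a ratio of 4.97 (1.997 to 16.0), and for Itpr2 of 8.004 (5.57 to 11.9). Scaled to library totals the ratios were 14.0 and 22.5, and from the deposited counts that of Itpr2 was 3.44. Both genes were called higher in the library labelled ISC, as were 26.7% of the 2920 host genes with at least 10 reads. Summed over those circRNAs that both libraries share, the ratio was 6.09 (4.02 to 9.66) for Itpr2 but 1.46 (0.365 to 8.40) for Itpr1, so the Itpr1 ratio rests on missing entries counted as 0.

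The Itpr1 circles lay in the later exons of the gene. Of its 16 circRNAs with a read, 13 started at or after exon 42 of the 62 exons of transcript Itpr1-201, with 52 of 56 reads. The leading circle, exons 42 to 44 (chr6:108432646-108440687, 375 nt), had 16 junction reads in the library labelled ISC and no entry in the other. Exons 43 to 44 (chr6:108438300-108440687, 324 nt) had 8 against 1 and exons 43 to 46 had 1 against 2, too few for a call. Exons 43 to 44 and 43 to 46 were the Itpr1 circRNAs seen in both. The junctions of the first pair are printed from transcript Itpr1-201, with capitals as before, to show the common donor of exon 44 joined to neighbouring acceptors.
Itpr1 exons 42 to 44: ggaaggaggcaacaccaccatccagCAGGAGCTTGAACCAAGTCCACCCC
Itpr1 exons 43 to 44: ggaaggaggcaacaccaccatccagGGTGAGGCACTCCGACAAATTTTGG

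Exon 43 was the most used Itpr1 acceptor, with 18 reads on 4 circRNAs. Exons 53 to 54 (299 nt) had 6 reads, exons 43 to 48 had 4 and exons 47 to 49 had 3, all labelled ISC. A circle with 1 read in the library labelled non-ISC began 3 nt inside exon 42, at an acceptor that other annotated Itpr1 transcripts use, and ended at exon 60. Both ends lay on exon ends for 14 of the 16. As in Itpr2, introns beside a used end were longer, at a median of 3837 nt for 15 introns against 1676 nt for the other 46, but 3 of the 10 longest introns flanked an end and rho was 0.318. Fewer reads also leave fewer ends to be seen.

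The receptors are related in sequence, so exon boundaries could be matched between them through an alignment of the translated coding sequences. Of the 56 boundaries within the Itpr2 coding sequence, 51 had a counterpart at the same codon position in Itpr1. Among these 51, Itpr2 used 17 acceptors (33.3%) and Itpr1 used 8, of which 3 were shared, 17.6% of those of Itpr2 and 37.5% of those of Itpr1. The shared part of the Itpr1 acceptors is close to the share of boundaries that Itpr2 used at all. The shared acceptors were those of Itpr2 exons 22, 38 and 40, with 154, 9 and 6 reads, and Itpr1 exons 24, 43 and 45, with 1, 18 and 1 reads. Itpr2 exon 38, which follows the longest intron, is thus the counterpart of the most used Itpr1 acceptor.

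Itpr3, on chromosome 17 (27057304 to 27122223), had no entry in the library labelled ISC and 3 junction reads in the library labelled non-ISC. With both libraries at or under the limit of 3 counts no ratio is given. Of its 3 entries, 1 had 2 reads with both ends inside intron 1 (27071630 to 27072859), and 1 had 0 junction reads. The other, exons 17 to 18 (chr17:27095464-27096069), had 1 read and was the one with both ends on exon ends. Its acceptor is the counterpart of that of Itpr2 exon 17, and 18 of the first 25 bases are identical between them, as the capitals show.
Itpr3 exons 17 to 18: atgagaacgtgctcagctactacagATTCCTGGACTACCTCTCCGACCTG
Itpr2 exons 17 to 21: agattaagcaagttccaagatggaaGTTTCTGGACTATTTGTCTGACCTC

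Levels of the 3 genes, in junction reads per 1000000 junction reads of the library, were 3251, 325.7 and 0 for Itpr2, Itpr1 and Itpr3 in the library labelled ISC and 406, 65.5 and 39.3 in the library labelled non-ISC. Itpr2 was the highest in each. Itpr1 and Itpr3, at 5 and 3 reads, cannot be told apart at this depth in the library labelled non-ISC.

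The host genes most like Itpr2, by the distance over log2 reads per 1000000 and log2 number of circRNAs in both libraries, were Pan3, Tlk1, Mad1l1, Birc6 and Ezh2. Pan3, a deadenylase subunit, had 360 reads on 23 circRNAs against 42 on 7, and Tlk1, a chromatin-linked kinase, 251 on 22 against 47 on 10. Mad1l1, of the spindle checkpoint, had 398 on 30 against 28 on 3. Birc6, a large ubiquitin ligase, had 179 on 34 against 44 on 13, and Ezh2, a histone methyltransferase, had 437 on 17 against 63 on 10. All had fewer circRNAs than Itpr2 in the library labelled ISC, which follows from the choice of Itpr2 by this number. With 2 libraries this likeness describes level and isoform number alone.

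Genes that act before and after the receptors were taken from a list of 103 gene symbols, drawn up with other results of these libraries known. Some are an old and a current symbol of the same gene, as Lrmp and Irag2, so the genes are fewer. A circRNA read was found under 55 of the symbols, and 27 reached 10 reads. A gene that the libraries name by another symbol counted as without reads. Mcub was such a gene, present as Ccdc109b with 4 reads against 0. Of the 27, 9 were higher under the label ISC, 6 were lower and 12 were not called, against 26.7% higher and 22.7% lower over all host genes. Scaled to library totals 17 were higher and 2 lower, against 58.8% and 11.1% over all host genes, so under either scaling the list lay near the background. Their median log2 ratio (0.5 read added) was 0.50, against 0.16 over all host genes tested. The higher genes stood mainly among the effectors of calcium and diacylglycerol, with 7 of 14, while 2 of the 3 phospholipases tested were lower. These groups are small. Camk4 and Rasgrp1 had no read labelled non-ISC, and Plcg2 none labelled ISC. With at least 10 reads against 0 the rule can call in that direction only, so these calls were fixed by the minimum. Camk4 among the effectors is also on the lymphocyte marker list, and Plcg2 among the phospholipases on the tuft and endocrine list, so the counts partly repeat the markers.

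Among effectors, Nfatc3, a transcription factor that calcineurin activates, had 185 reads against 24, a ratio of 3.76 (2.45 to 6.01). Prkcb, a calcium-dependent protein kinase C, had 245 against 13, a ratio of 9.19 (5.27 to 17.5). Prkcq, the protein kinase C of T cell receptor signalling, had 58 against 2, a ratio of 14.1 (3.74 to 120). All 3 were thus several times higher in the library labelled ISC. Camk4, a calmodulin-dependent kinase, had 286 reads against 0, and Rasgrp1, a diacylglycerol-regulated Ras activator of lymphocytes, 12 against 0. Camk1d, another such kinase, had 38 against 5 and Nfat5, the osmotic stress factor of the NFAT family, 23 against 1. Nfatc2, of the same family, was lower with 22 reads in each library, a ratio of 0.488 (0.258 to 0.923) that turned above 1 when scaled to library totals. With junction reads halved Nfatc2 was no longer called and Rasgrp1 had too few reads for a call. Ppp3cc, a calcineurin catalytic subunit, had 65 against 20, a ratio of 1.58 (0.947 to 2.76) that was called higher with library totals alone.

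Upstream, Plcg2, the phospholipase C of B cells and tuft cells, had 0 reads against 18 and Plce1 had 17 against 55, a ratio of 0.151 (0.0820 to 0.2635). Plcg1, which T cell receptors activate, had 44 against 27 and was not called, at 0.794 (0.481 to 1.33), but with library totals its ratio was 2.24 (1.36 to 3.76) and called higher. Plcg2 and Plce1 were called lower under both scalings. Among partners of the receptors, Lrmp, a lymphoid membrane protein of the endoplasmic reticulum, had 70 against 6, a ratio of 5.69 (2.49 to 16.0). Ahcyl2, of the family of the receptor inhibitor IRBIT, had 62 against 105, a ratio of 0.288 (0.207 to 0.398) that became 0.811 (0.583 to 1.12), no longer called, with library totals. Stim1, the calcium sensor of store-operated entry, had 18 against 1 and was higher, a call that was lost with junction reads halved. Vdac2, a channel of the outer mitochondrial membrane, had 7 against 17 and was lower, but not with library totals, at 0.565 (0.198 to 1.44). No ryanodine receptor or calcium pump of the endoplasmic reticulum reached 10 reads.

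**Figure D5:**
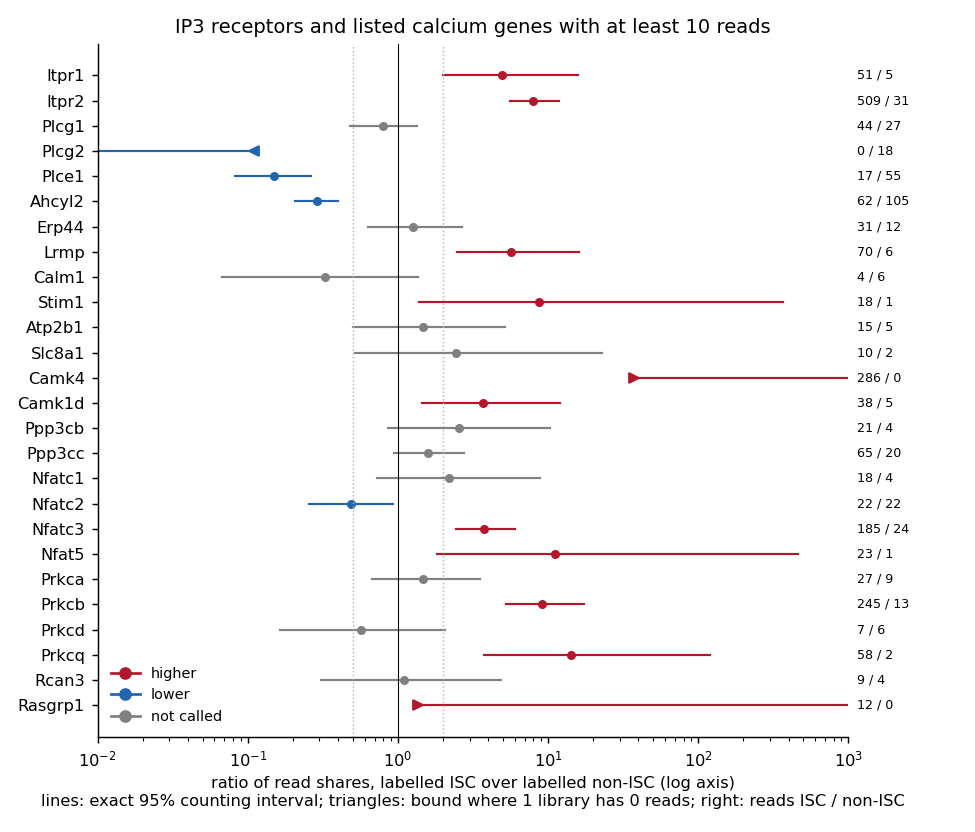
Points give the ratio of read shares, labelled ISC over labelled non-ISC, on a log axis for Itpr1, Itpr2 and the listed genes with at least 10 reads other than those of mitochondrial uptake, which are not drawn, lines give exact 95% counting intervals, and triangles mark the bound where a library had 0 reads; dotted lines mark the 2-fold limits. Itpr2 at 8.004 has a narrow interval beside those of genes with few reads, such as Stim1 at 18 reads against 1.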

How the data were processed

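The RNA had its ribosomal species removed and its linear molecules digested with RNase R, and fragments of about 200 bp were read from both ends for 150 nt, per the labels' protocols. Trimmomatic 0.36, FastQC and mm9 appear in the submitters' processing notes. Which aligner and caller were used is not given in the sources used. Per the file headers, the authors deposited for each circRNA a count of assigned reads, an RPM value and a count of junction reads. The RPM of the authors is the count per 1000000 reads, which implies totals of 52636694 and 72271995 reads for the labels ISC and non-ISC. Junction reads were used here. No column holds linear reads, so circles were not set against linear RNA.

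The coordinates met exon ends of GENCODE M21 on GRCm38 and are given on that build, counted from 1, although the notes name mm9. Exon numbers follow the transcript with the longest coding sequence. No entry inside the loci had another host name. Entries without a host gene, 0.726% and 1.48% of junction reads, counted in totals but not as host genes. Ratios have exact conditional (Clopper-Pearson) intervals at 95% for counting error, checked on simulated independent counts. That simulation held no mates counted double and no missing entries, so it cannot show how the intervals fare with these. Both mates of a pair can cross a junction, so intervals may be too narrow. Computation used Python 3.11.15, scipy 1.17.1 and pandas 2.3.3. Members, gene lists and rules were chosen with earlier results of these data known. Circles with at least 10 reads or with reads in both libraries are named in full, from the list every called gene, except 1 that is not reported here, and those with at least 50 reads, and the 5 host genes nearest to Itpr2.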

Additional observations from a re-analysis of the deposited data

Results flagged for a closer look

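Of the Itpr entries in the library labelled non-ISC, 7 had no junction read, and 5 of these had a deposited count above 3, in a column that the comparisons do not use. The Itpr3 entry from 27097956 to 27107936 had a count of 874 with 0 junction reads, with its start in intron 18 and its end inside exon 33. In Itpr2 such counts were 11 for the entry from 146142645 to 146144269, 7 for exons 33 to 34 and 7 for the entry from 146312839 to 146313271. In Itpr1 the entry of exons 8 to 11 had a count of 5. The sources used here do not say how the counts were assigned.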

How the results depend on the processing

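The Itpr2 ratio of 8.004 was 22.5 scaled to library totals, a scaling that shifts every log2 ratio by 1.49, and 3.44 from the deposited counts. The Itpr1 ratio of 4.97 was 1.46 over the circRNAs that both libraries share and 14.0 scaled to library totals. The other alternatives for these ratios stayed within their counting intervals. The leading circle's share labelled ISC was 6.46% from the counts. The number of Itpr2 circRNAs labelled ISC was 12 with at least 10 reads and 15.65 at equal depth, and that labelled non-ISC was 0 with at least 10 reads. With at least 3 reads per circRNA, 16 acceptors and 16 donors were left. The causes were not tested, beyond the fewer circles these minimums keep. The calcium list split into 9 higher and 6 lower became 17 and 2 with library totals. With reads halved, as if both mates had been counted, exons 25 to 26 had an interval of 0.979 to 277 and was no longer called. Exons 22 to 26 was called at 2.73 (1.03 to 9.12) with median-ratio scaling and at 6.87 with library totals. No ratio was computed for Itpr3, and no library could be left out, as each group has 1. No paired analysis was possible because each group has a single library. With 31 reads labelled non-ISC, isoform shares in that library are loosely bounded.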

Other observations

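Deposited counts were far above junction reads in some entries. In the library labelled ISC, 4 of 46 Itpr2 entries and 4 of 14 Itpr1 entries had a count of at least 10 times their junction reads. Over all entries of that library 5967 of 18438 did. In the library labelled non-ISC, entries without a junction read included, 4 of 13 Itpr2, 3 of 6 Itpr1 and 3 of 3 Itpr3 entries did. Over all entries there it was 9370 of 18324. By count, the largest of these in Itpr1 was exons 24 to 37, with a count of 207 and 1 junction read. In Itpr2 the largest by count was the entry from 146323111 to 146336227, with a count of 195 and 2 junction reads, which has an end inside intron 26, while exons 11 to 13 had a count of 120 on 1 junction read.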
